A study of Mus musculus with 13 samples.

Results

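The collagen chains were the 35 collagen genes among the 36 entries of the authors' normalised table whose symbol has the form Col, a type number, the letter a and a chain number. The remaining match, Col4a3bp, encodes a ceramide transfer protein and was kept out of every collagen count. The 35 chains, of 17957 entries in that table, were 9 fibrillar chains, 6 collagen IV chains, 6 collagen VI chains and 14 others. A further 9 collagen genes of the count table, Col2a1 among them, had at most 5 reads in any library and stood below the normalised table.

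The submandibular gland is a large salivary gland, and its RNA was sequenced in 13 libraries of mice of strain CH3, aged 1 year and sampled on day 300 after treatment. PreIR-NTN, with 5 libraries, came from irradiated mice that had received Cere-120, an adeno-associated virus serotype 2 vector carrying neurturin (AAV2-NRTN), in the gland 10 days before irradiation. PreIR-GFP, with 5 libraries, came from irradiated mice given AAV2-GFP, a vector carrying green fluorescent protein, on the same schedule. NonIR, with 3 libraries, came from non-irradiated mice; the labels do not say whether a vector was given, so irradiation and vector cannot be told apart in comparisons with NonIR. The labels do not tie the libraries to separate animals, so p-values measure the spread between these libraries, which may be technical.

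Collagens are extracellular matrix proteins built of chains wound into helical trimers. Fibrillar collagens I, III, V and XI form the fibres of connective tissue, and collagen IV forms the network of basement membranes, on which acini, ducts and vessels of a salivary gland rest. Collagen VI forms beaded microfilaments beside basement membranes, and the remaining types decorate fibrils, anchor epithelia or span the cell membrane. In whole glands, fewer cells of a type and less RNA per cell cannot be told apart.

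Collagen IV genes lie head to head in pairs, and the results below turn on how such partners were related. Col4a1 and Col4a2 start 21 bp apart on opposite strands of chromosome 8, and Col4a3 and Col4a4 start 72 bp apart on chromosome 1. RefSeq promoter windows on GRCm38.p6, from 250 bases before to 50 bases after a gene's start, matched 28 of the 35 chains with 30 windows. The 3 windows below are shown because these pairs and Col23a1, the chain with the lowest p-value in both comparisons with PreIR-GFP, recur in the results. The first is chr8:11312555-11312854 on the plus strand, with capitals on the 22 bases from the Col4a2 start through the Col4a1 start. The second is chr1:82586800-82587099 on the minus strand, with capitals on the 73 bases spanning the Col4a4 and Col4a3 starts. The third is chr11:51289670-51289969 on the plus strand, with capitals on its match to the GC box GGGCGG, read on the minus strand.
Col4a2: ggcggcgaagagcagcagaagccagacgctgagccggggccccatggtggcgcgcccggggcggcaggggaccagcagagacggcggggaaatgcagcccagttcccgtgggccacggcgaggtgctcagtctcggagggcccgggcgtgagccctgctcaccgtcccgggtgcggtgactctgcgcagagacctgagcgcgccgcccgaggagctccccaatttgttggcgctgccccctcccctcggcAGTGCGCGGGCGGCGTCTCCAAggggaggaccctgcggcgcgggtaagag
Col4a4: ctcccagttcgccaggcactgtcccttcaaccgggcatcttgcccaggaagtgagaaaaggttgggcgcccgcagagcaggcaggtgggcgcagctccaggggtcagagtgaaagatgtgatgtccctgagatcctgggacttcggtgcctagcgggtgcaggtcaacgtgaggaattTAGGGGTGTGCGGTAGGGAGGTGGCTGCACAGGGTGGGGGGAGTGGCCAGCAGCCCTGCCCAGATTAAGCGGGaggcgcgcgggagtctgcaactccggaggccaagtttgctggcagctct
Col23a1: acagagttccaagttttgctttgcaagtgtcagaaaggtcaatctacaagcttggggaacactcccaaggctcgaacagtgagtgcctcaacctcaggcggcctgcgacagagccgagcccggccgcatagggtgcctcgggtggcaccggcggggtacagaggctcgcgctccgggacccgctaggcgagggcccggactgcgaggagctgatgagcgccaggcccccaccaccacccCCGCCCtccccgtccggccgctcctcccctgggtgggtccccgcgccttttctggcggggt

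These windows were rich in G and C, at 73.7% for Col4a2, 63.3% for Col4a4 and 67.7% for Col23a1, where the median of all promoter windows was 52.7%. The GC box GGGCGG, searched on both strands, was found in 21 of the 30 collagen windows (70.0%) and in 35.7% of all 32851 promoter windows. It had 3 matches in the Col4a2 window, 1 in the Col23a1 window and 0 in the Col4a4 window. The CCAAT box CCAAT stood in 36.7% of collagen windows and in 37.4% of all windows, with 1 match in the Col4a2 window. The TATA box form TATAAA stood in 10.0% of collagen windows, against 13.6% of all windows, and in none of the 3 windows shown. These matches describe letters, not bound sites, and GC content was not matched between the sets.

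Libraries held 9724301 to 16771003 reads in genes, of which 1648 to 3075 fell on collagen chains. Single libraries stood high for many chains: PreIR-GFP 1, the shallowest library, was the highest of its group for 17 of 30 tested chains, PreIR-NTN 5 for 18 and NonIR 3 for 17. The NonIR count is over 3 libraries and the others over 5, and the share over all genes was not taken. Among markers of other cell types, skeletal muscle genes summed to 189.9 CPM in PreIR-GFP 2 and to at most 4.45 CPM in every other PreIR-GFP library. Granular convoluted tubule genes, marking the growth factor secreting ducts of this gland, summed to 9251 CPM in PreIR-GFP 1, the lowest of all libraries. The gland's acinar markers were present in every library, at summed levels of 28149 to 68116 CPM, and the cartilage markers Acan and Matn1 were at 0 in all libraries.

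Collagen transcripts were led by collagen IV, and within it by Col4a3. All 35 chains are protein coding, and positions given with a gene are its full extent on GRCm38. Levels are given in CPM, counts adjusted for each library's TMM-scaled depth, and between genes only as CPM per kb of exon. Col4a3, which encodes a chain of the mature basement membrane network, had the highest mean level over all libraries at 3.68 CPM per kb, followed by Col4a1 at 2.02, Col1a2 at 1.56, Col3a1 at 1.22, Col4a2 at 1.09, Col6a1 at 1.08, Col7a1 at 1.05 and Col1a1 at 1.02 CPM per kb. The neighbours from Col4a2 to Col1a1 in this order differed by less than their spread over libraries. Col4a3 shares 563 exonic bases with C430014B12Rik on the opposite strand, which was counted at 0 to 3 reads in a library; the library kit does not mark strand. Summed over its chains, collagen IV took 41.3 ± 2.91% of collagen reads in PreIR-NTN, 41.0 ± 0.772% in PreIR-GFP and 39.0 ± 2.17% in NonIR (SD, n = 5, 5 and 3). Fibrillar chains took 30.8 ± 1.37% in PreIR-NTN, 31.8 ± 2.54% in PreIR-GFP and 35.4 ± 3.80% in NonIR. Collagen VI took 7.78 ± 0.551% in PreIR-NTN, 8.99 ± 0.742% in PreIR-GFP and 8.81 ± 1.07% in NonIR. The other collagens took 20.1 ± 2.46% in PreIR-NTN, 18.2 ± 2.76% in PreIR-GFP and 16.7 ± 2.20% in NonIR.

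**Figure D1:**
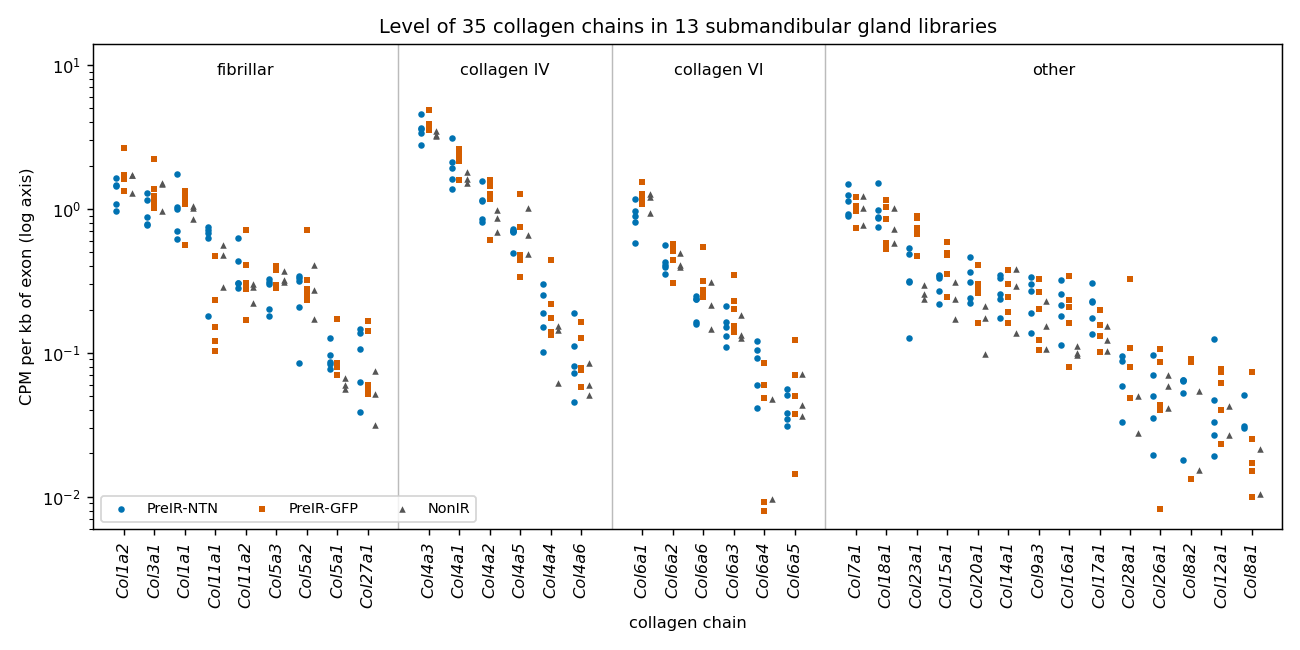
Each point is the level of 1 collagen chain in 1 library, in CPM per kb of exon on a log axis, with chains grouped by class and ordered by mean level; the 9 of 455 values at 0 reads, in 4 chains, are not drawn. Col4a3 stands highest, at 3.68 CPM per kb on average, and the groups overlap for most chains.

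Of 14727 genes tested with edgeR's quasi-likelihood test and Benjamini-Hochberg adjustment over all genes, 30 were collagen chains: all 9 fibrillar, all 6 collagen IV, 5 of 6 collagen VI and 10 of 14 other chains. None passed an adjusted p of 0.05 in any of the 3 comparisons, against 0.0204% of all genes tested in PreIR-NTN against PreIR-GFP, 0.034% in PreIR-GFP against NonIR and 0.0204% in PreIR-NTN against NonIR. At an unadjusted p under 0.05 stood 6 chains of 30 in PreIR-NTN against PreIR-GFP, 1 higher and 5 lower, where 6.08% of all genes did, 2.36% higher and 3.73% lower. In PreIR-GFP against NonIR 3 chains stood there, all higher, where 8.78% of all genes did and 5.35% were higher. In PreIR-NTN against NonIR 4 did, all higher, where 7.97% of all genes did and 4.28% were higher. The first count was 2 without PreIR-GFP 1 and 3 without PreIR-NTN 3, the second 1 without NonIR 2, 5 without NonIR 1 and 7 without PreIR-GFP 5, and the third 1 without PreIR-NTN 1, NonIR 2 or NonIR 3. DESeq2 called 1 chain, Col23a1, in PreIR-GFP against NonIR, and limma-voom called none. Reads of the 5 chains not tested, Col6a5, Col8a1, Col8a2, Col26a1 and Col28a1, totalled 31 to 86 per chain over all libraries. The summed CPM of all 35 chains was 159 ± 26.6 in PreIR-NTN, 175 ± 28.4 in PreIR-GFP and 148 ± 15.4 in NonIR (SD, n = 5, 5 and 3), and the groups overlapped.

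**Figure D2:**
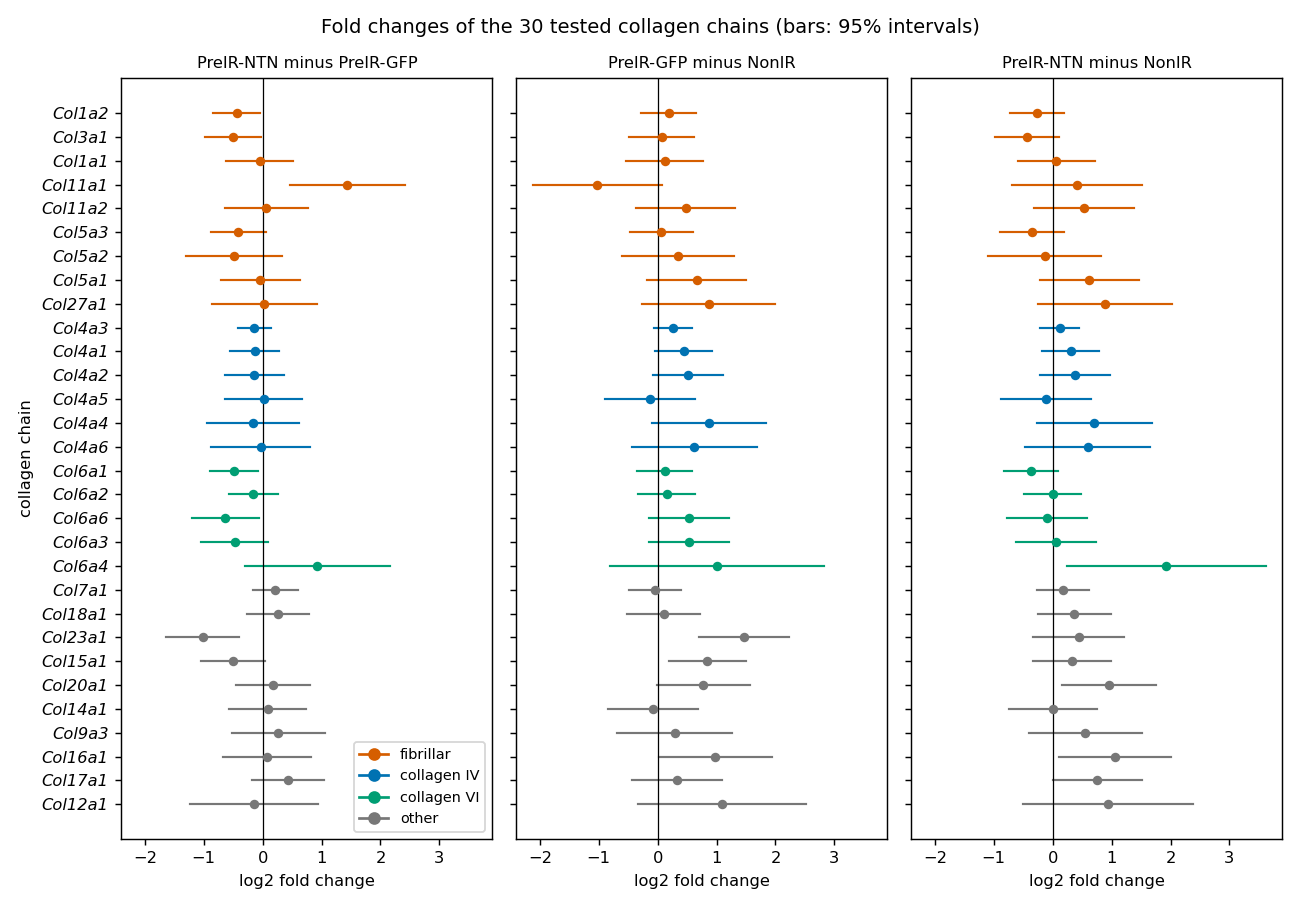
Points are log2 fold changes of the 30 tested chains in the 3 comparisons, and bars are 95% intervals, coloured by collagen class. Most intervals cross 0, and Col23a1 and Col11a1 lie farthest from 0 in the comparison of the irradiated groups, at -1.02 and 1.44.

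Fibrillar chains, the load-bearing collagens of connective tissue, summed to 49.2 ± 9.82 CPM in PreIR-NTN, 56.1 ± 12.6 CPM in PreIR-GFP and 52.7 ± 9.298 CPM in NonIR (SD, n = 5, 5 and 3), and the groups overlapped. Col1a2, the second chain of collagen I (ENSMUSG00000029661, chromosome 6 from 4504814 to 4541544), measured 18.1, 17.8, 11.98, 13.4 and 20.4 CPM in PreIR-NTN libraries 1 to 5, 32.9, 21.3, 16.5, 19.96 and 20.5 CPM in PreIR-GFP libraries 1 to 5, and 16.2, 21.3 and 21.3 CPM in NonIR libraries 1 to 3. The highest library was PreIR-GFP 1, and the groups overlapped in every comparison. The log2 fold change, with its 95% interval in parentheses, was -0.44 (SE 0.19, 95% interval -0.84 to -0.04, adjusted p = 0.761) in PreIR-NTN against PreIR-GFP and 0.18 (-0.28 to 0.65) in PreIR-GFP against NonIR; PreIR-NTN against NonIR stood at -0.26 (-0.72 to 0.20). Without PreIR-GFP 1 the value for PreIR-GFP against NonIR was -0.01. Markers of mural cells, which surround vessels and also make collagen, summed to 357 to 473 CPM in PreIR-NTN, 394 to 885 CPM in PreIR-GFP, highest in PreIR-GFP 1, and 411 to 452 CPM in NonIR. Their part in the result was not tested, nor was that of fibroblast markers, whose lower sums in PreIR-NTN are given with collagen VI.

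Col3a1, the chain of collagen III in reticular fibres (ENSMUSG00000026043, chromosome 1 from 45311538 to 45349706), measured 11.4, 7.74, 7.58, 8.63 and 12.8 CPM in PreIR-NTN libraries 1 to 5, 21.8, 12.1, 10.9, 13.6 and 9.93 CPM in PreIR-GFP libraries 1 to 5, and 9.51, 14.7 and 14.95 CPM in NonIR libraries 1 to 3. PreIR-GFP 1 was again the highest, and the other libraries of the 3 groups overlapped. For Col3a1 the log2 fold change was -0.50 (SE 0.22, 95% interval -0.98 to -0.03, adjusted p = 0.796) in PreIR-NTN against PreIR-GFP and -0.44 (-0.98 to 0.10) in PreIR-NTN against NonIR; against NonIR, PreIR-GFP stood at 0.07 (-0.48 to 0.61), or -0.18 without PreIR-GFP 1. Col1a1, the partner of Col1a2 in collagen I, measured 6.74, 4.05, 4.64, 6.53 and 11.4 CPM in PreIR-NTN libraries 1 to 5, 7.904, 7.06, 8.76, 7.22 and 3.69 CPM in PreIR-GFP libraries 1 to 5, and 5.61, 6.67 and 6.86 CPM in NonIR libraries 1 to 3. Those libraries overlapped throughout, and PreIR-NTN 5 was highest. The value for PreIR-NTN against PreIR-GFP, -0.05 (-0.62 to 0.51) on the log2 scale, was positive without PreIR-GFP 1, at 0.03, and PreIR-GFP against NonIR stood at 0.12 (-0.54 to 0.77).

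Col11a1 (ENSMUSG00000027966, chromosome 3 from 114030540 to 114220718), which encodes a chain of collagen XI that nucleates thin fibrils, had the largest positive value among chains between the irradiated groups. It measured 2.29, 9.03, 7.98, 8.70 and 9.597 CPM in PreIR-NTN libraries 1 to 5, 1.31, 1.91, 2.97, 1.55 and 6.003 CPM in PreIR-GFP libraries 1 to 5, and 3.63, 7.17 and 6.13 CPM in NonIR libraries 1 to 3. In 4 of 5 PreIR-NTN libraries it was above every PreIR-GFP library, and PreIR-NTN 1 lay with the PreIR-GFP libraries. PreIR-NTN against PreIR-GFP had a log2 fold change of 1.44 (SE 0.45, 95% interval 0.47 to 2.41, adjusted p = 0.627), from an unadjusted p of 0.00717. Against NonIR, the log2 fold change was 0.42 (-0.68 to 1.52) in PreIR-NTN and -1.02 (-2.12 to 0.08) in PreIR-GFP, and the NonIR mean lay between those of the irradiated groups. Markers of cartilage, a tissue rich in collagen XI, summed over 6 genes to 1.60 to 2.61 CPM in PreIR-NTN, 2.05 to 3.64 CPM in PreIR-GFP and 2.37 to 2.95 CPM in NonIR.

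The remaining fibrillar chains, Col5a1, Col5a2, Col5a3, Col11a2 and Col27a1, averaged 0.746 to 2.90 CPM over all libraries. Col5a1, a chain of collagen V that sets fibril diameter, was named after its values were seen, because its libraries did not overlap NonIR in either irradiated group. It averaged 0.799 ± 0.166 CPM in PreIR-NTN, 0.8297 ± 0.3505 CPM in PreIR-GFP and 0.519 ± 0.0478 CPM in NonIR (SD, n = 5, 5 and 3). On the log2 scale it stood at 0.62 (SE 0.40, 95% interval -0.22 to 1.46, adjusted p = 0.745) in PreIR-NTN and 0.66 (SE 0.39, 95% interval -0.18 to 1.499, adjusted p = 0.671) in PreIR-GFP, both against NonIR, at 6 to 20 reads per library. PreIR-GFP 1 was its highest library, at 1.45 CPM with the next of its group at 0.726. Leaving out 1 library moved the PreIR-GFP value between 0.36 and 0.76. Libraries lay wholly above NonIR for 2.87% of all genes tested in PreIR-GFP and 3.22% in PreIR-NTN.

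**Figure D3:**
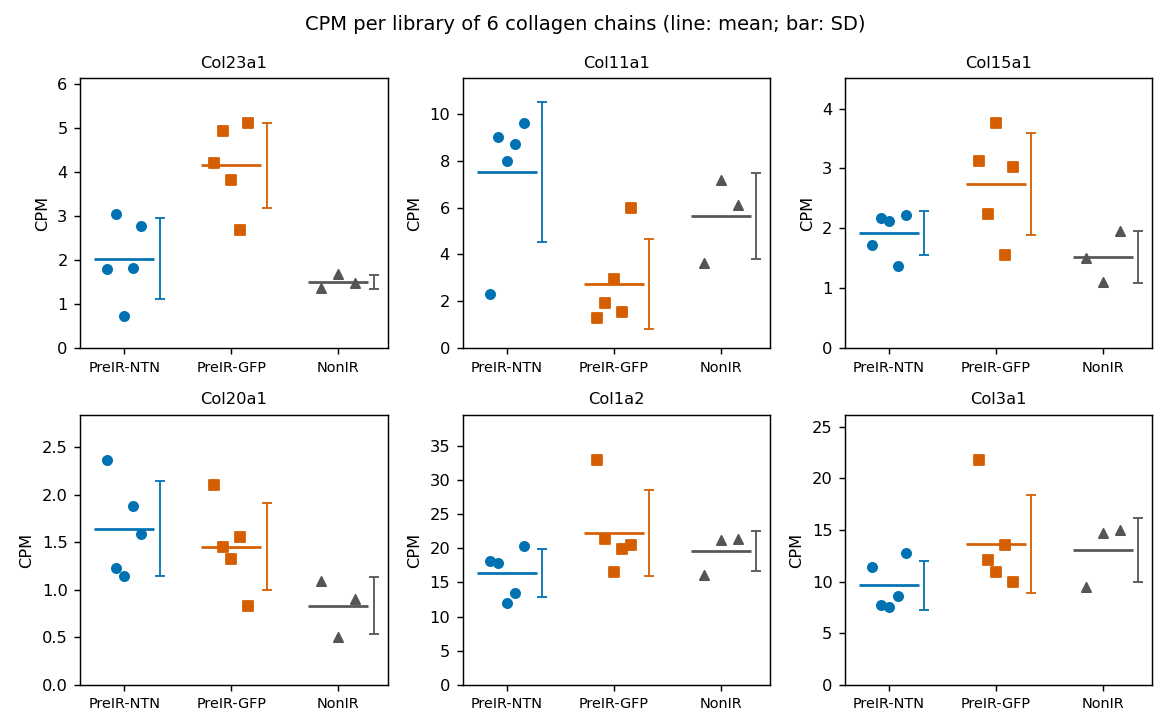
CPM of 6 collagen chains in each library, with the group mean as a line and the SD as a bar. PreIR-GFP libraries of Col23a1 all lie above the NonIR libraries, and PreIR-NTN 1 stands apart from the other PreIR-NTN libraries for Col11a1, at 2.29 CPM.

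Basement membrane chains took the largest share of collagen reads in all 13 libraries, in NonIR 2 by 681 reads against 679 for fibrillar chains. Such shares count reads and are not scaled to exon length. Collagen IV chains summed to 65.7 ± 12.6 CPM in PreIR-NTN, 71.8 ± 11.6 CPM in PreIR-GFP and 57.6 ± 2.75 CPM in NonIR (SD, n = 5, 5 and 3), with overlap. Of these sums, Col4a3 alone averaged 35.9 CPM in PreIR-NTN, 39.6 CPM in PreIR-GFP and 33.1 CPM in NonIR. Without Col4a3, the collagen IV mean would lie below the fibrillar mean in every group, so the lead of the class rested on this chain. Col4a1 (ENSMUSG00000031502, chromosome 8 from 11198423 to 11312826) and Col4a2 (ENSMUSG00000031503, chromosome 8 from 11312805 to 11449287) encode the chains of the common basement membrane heterotrimer. Col4a1 measured 15.9, 11.97, 10.3, 14.3 and 23.1 CPM in PreIR-NTN libraries 1 to 5, 19.5, 18.02, 17.6, 16.1 and 11.9 CPM in PreIR-GFP libraries 1 to 5, and 11.3, 11.98 and 13.5 CPM in NonIR libraries 1 to 3. Both irradiated groups averaged higher than NonIR, with overlap, at log2 fold changes of 0.30 (SE 0.23, 95% interval -0.18 to 0.78, adjusted p = 0.788) in PreIR-NTN and 0.44 (SE 0.23, 95% interval -0.04 to 0.92, adjusted p = 0.609) in PreIR-GFP. Col4a2 measured 7.53, 5.63, 5.38, 7.69 and 10.3 CPM in PreIR-NTN libraries 1 to 5, 8.41, 9.503, 10.5, 7.82 and 4.04 CPM in PreIR-GFP libraries 1 to 5, and 5.75, 4.56 and 6.54 CPM in NonIR libraries 1 to 3. It stood at 0.38 (-0.21 to 0.97) in PreIR-NTN and 0.52 (-0.08 to 1.11) in PreIR-GFP, each against NonIR, and the groups overlapped.

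Col4a3 and Col4a4 encode chains that pair with Col4a5 in the network of specialised basement membranes. Col4a3 (ENSMUSG00000079465, chromosome 1 from 82586921 to 82722059) measured 27.5, 36.5, 35.9, 33.8 and 45.6 CPM in PreIR-NTN libraries 1 to 5, 48.4, 39.0, 37.1, 38.1 and 35.3 CPM in PreIR-GFP libraries 1 to 5, and 32.4, 31.9 and 34.9 CPM in NonIR libraries 1 to 3. All 5 PreIR-GFP libraries lay above the 3 NonIR libraries, while PreIR-NTN overlapped both; 2.87% of all genes tested had PreIR-GFP libraries wholly above NonIR. Col4a3's log2 fold change was 0.26 (SE 0.15, 95% interval -0.07 to 0.59, adjusted p = 0.668) in PreIR-GFP against NonIR, -0.14 (-0.42 to 0.14) in PreIR-NTN against PreIR-GFP and 0.12 (-0.21 to 0.44) in PreIR-NTN against NonIR. Col4a4 measured 1.08, 1.99, 3.18, 1.595 and 2.697 CPM in PreIR-NTN libraries 1 to 5, 4.71, 1.85, 1.49, 1.42 and 2.32 CPM in PreIR-GFP libraries 1 to 5, and 1.64, 1.52 and 0.654 CPM in NonIR libraries 1 to 3. PreIR-GFP 1 was its highest library, and the log2 fold change of PreIR-GFP against NonIR was 0.88 (-0.09 to 1.84), or 0.46 without that library.

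Col4a5, an X-linked chain, measured 4.88, 4.63, 3.34, 4.71 and 4.76 CPM in PreIR-NTN libraries 1 to 5, 8.56, 2.97, 2.27, 3.24 and 5.05 CPM in PreIR-GFP libraries 1 to 5, and 3.28, 6.84 and 4.41 CPM in NonIR libraries 1 to 3. PreIR-GFP 1 and NonIR 2 were its highest libraries, and all groups overlapped. Col4a6, its neighbour and partner on the X chromosome, measured 0.574, 0.645, 0.896, 0.363 and 1.51 CPM in PreIR-NTN libraries 1 to 5, 1.31, 0.462, 0.626, 0.607 and 1.01 CPM in PreIR-GFP libraries 1 to 5, and 0.479, 0.675 and 0.409 CPM in NonIR libraries 1 to 3. PreIR-NTN 5 and PreIR-GFP 1 were its highest, and all groups overlapped.

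Partner genes were compared across libraries, pair by pair, and no test set 1 pair against another. Chains of few reads, such as Col4a4 at 8 to 65 and Col4a6 at 5 to 19 reads per library, carry counting noise that lowers r. Over 13 libraries, log2 CPM of Col4a1 and Col4a2 had Pearson's r = 0.877 and Spearman's rho = 0.885 (permutation test, 100000 permutations, adjusted p = 0.00096 for both over 8 pairs), and r was 0.875 without the 2 libraries farthest from the median of Col4a1. Col4a2 ranked 3 of 14726 genes for correlation with Col4a1. The 2 genes share 22 exonic bases, so reads there could be counted for either. Col4a3 and Col4a4 had r = 0.663 and rho = 0.527 (permutation test, adjusted p = 0.0558 and 0.135). Without PreIR-GFP 1 and PreIR-NTN 1, the 2 libraries farthest from the median of Col4a3, r was 0.365. Leaving out such libraries narrows the range, which by itself lowers r, so this does not show what the relation rested on. Deviations from the group means gave r = 0.611. Per kb, Col4a3 stood 19.9 ± 5.62 times above Col4a4 in PreIR-NTN, 20.97 ± 7.35 times in PreIR-GFP and 33.4 ± 20.3 times in NonIR (SD, n = 5, 5 and 3). Col4a5 and Col4a6, whose starts lie 1309 bp apart, had r = 0.413 and rho = 0.484 (permutation test, adjusted p = 0.185 and 0.156).

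Of the fibrillar and collagen VI pairs, none passed an adjusted permutation p of 0.05. Col1a1 and Col1a2, partners in collagen I on different chromosomes, had r = 0.315 and rho = 0.379 (permutation test, adjusted p = 0.294 and 0.272). Col1a1 and Col3a1 had r = 0.590 and rho = 0.665 (permutation test, adjusted p = 0.0678 and 0.0601). Col3a1 and Col5a2, whose genes end 24.6 kb apart on chromosome 1, had r = 0.639 and rho = 0.352 (permutation test, adjusted p = 0.0558 and 0.275). Without PreIR-GFP 1 and PreIR-NTN 3, the libraries farthest from the median of Col3a1, r was 0.0217. Leaving out such libraries lowers r by itself, so this does not show what the relation rested on. Deviations from the group means gave r = 0.602. Col5a1 and Col5a2 had r = 0.491 and rho = 0.247 (permutation test, adjusted p = 0.136 and 0.417), and r was -0.0470 without PreIR-GFP 1 and PreIR-NTN 1. Col6a1 and Col6a2 had r = 0.472 and rho = 0.538 (permutation test, adjusted p = 0.136 and 0.135). Libraries shared depth and scaling across all these pairs, and the median correlation of each first gene with all genes was between -0.0431 and 0.00907.

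**Figure D4:**
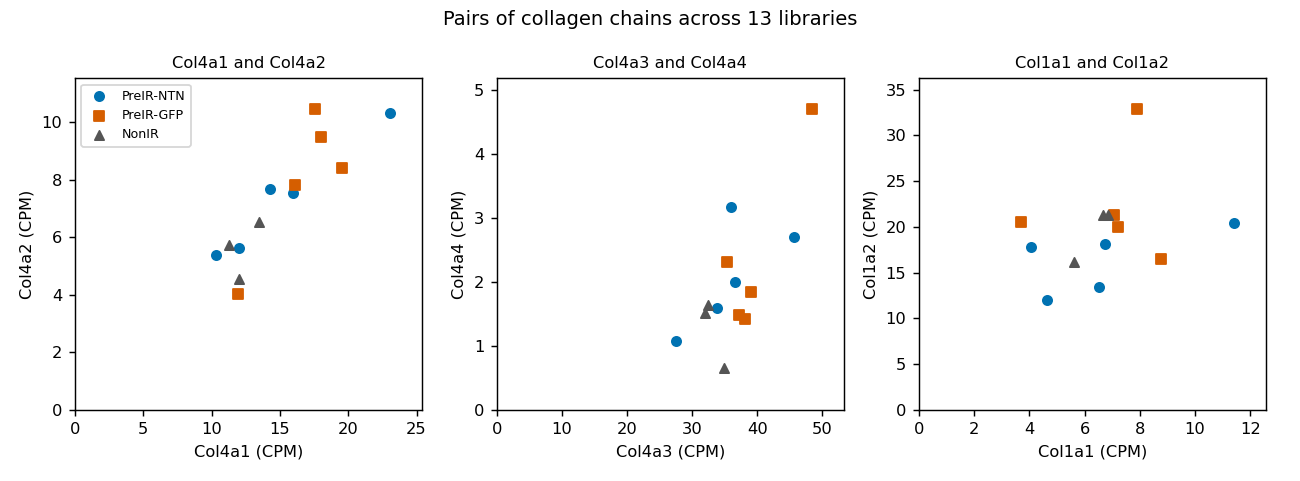
Each point is 1 library, with CPM of one collagen chain against CPM of its partner, coloured by group. Col4a1 and Col4a2 lie close to a line (r = 0.877), while Col1a1 and Col1a2 scatter (r = 0.315).

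Collagen VI chains were lower in PreIR-NTN than in PreIR-GFP on average, without a call. Of 5 tested chains 4 were lower and the median log2 fold change was -0.47, against -0.10 over the 30 chains and -0.01 over all genes. The median was -0.05 for fibrillar chains, -0.14 for collagen IV and 0.13 for other collagens. Single fibrillar chains stood as low, Col1a2 at -0.44 and Col3a1 at -0.50, while 3 of 9 fibrillar chains were higher. The collagen VI median stayed below 0 in all 26 alternative settings, between -0.56 and -0.21, but these settings re-use the same libraries. Without PreIR-GFP 1 this median was -0.208, the weakest of them. Without PreIR-GFP 1 and 2 it was -0.265, with 2 chains higher and 3 lower. Fibroblast markers, 7 genes including Pdgfra and Dcn, stood lower as well, all 7 of them, with a median log2 fold change of -0.79. Of them 1 passed the threshold, where 3 of all 14727 genes did (0.0204%). Over all genes, 0 passed with limma-voom, with only the 2 groups or without PreIR-GFP 1, and 39 with DESeq2. The fibroblast markers summed to 122 to 168 CPM in PreIR-NTN, 213 to 336 CPM in PreIR-GFP and 211 to 250 CPM in NonIR. Their part in the result was not tested.

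Col6a1, a short chain of the collagen VI heterotrimer (ENSMUSG00000001119, chromosome 10 from 76708792 to 76726168), measured 4.23, 2.52, 3.91, 3.55 and 5.16 CPM in PreIR-NTN libraries 1 to 5, 6.74, 4.75, 5.55, 4.79 and 5.29 CPM in PreIR-GFP libraries 1 to 5, and 5.27, 4.14 and 5.56 CPM in NonIR libraries 1 to 3. PreIR-NTN 5 overlapped the PreIR-GFP libraries, while the other 4 PreIR-NTN libraries lay below all 5. In PreIR-NTN against PreIR-GFP the log2 fold change was -0.49 (SE 0.19, 95% interval -0.89 to -0.08, adjusted p = 0.738), and in PreIR-NTN against NonIR -0.37 (-0.83 to 0.10). Col6a2, its partner, measured 3.58, 3.28, 2.93, 3.41 and 4.68 CPM in PreIR-NTN libraries 1 to 5, 4.79, 4.22, 4.69, 3.71 and 2.56 CPM in PreIR-GFP libraries 1 to 5, and 3.28, 3.38 and 4.09 CPM in NonIR libraries 1 to 3. All groups overlapped.

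Col6a3, the long chain of the heterotrimer, measured 1.58, 1.82, 1.96, 1.31 and 2.54 CPM in PreIR-NTN libraries 1 to 5, 4.13, 1.85, 2.74, 2.43 and 1.66 CPM in PreIR-GFP libraries 1 to 5, and 1.51, 1.603 and 2.21 CPM in NonIR libraries 1 to 3. PreIR-GFP 1 was the highest, and the log2 fold change was -0.47 (-1.05 to 0.10) in PreIR-NTN against PreIR-GFP and 0.53 (-0.15 to 1.204) in PreIR-GFP against NonIR, or -0.21 and 0.27 without PreIR-GFP 1. Col6a6, a chain related to Col6a3, measured 2.29, 2.17, 1.47, 2.18 and 1.51 CPM in PreIR-NTN libraries 1 to 5, 5.004, 2.24, 2.89, 2.495 and 2.38 CPM in PreIR-GFP libraries 1 to 5, and 1.98, 1.35 and 2.86 CPM in NonIR libraries 1 to 3. PreIR-GFP 1 was again highest, the groups overlapped, and the log2 fold change was -0.63 (SE 0.27, 95% interval -1.21 to -0.06, adjusted p = 0.7699) in PreIR-NTN against PreIR-GFP and 0.53 (-0.14 to 1.21) in PreIR-GFP against NonIR, or -0.35 and 0.26 without PreIR-GFP 1. Col6a4 measured 0.789, 0.352, 0.896, 0.508 and 1.03 CPM in PreIR-NTN libraries 1 to 5, 0.508, 0.726, 0.0782, 0.0674 and 0.416 CPM in PreIR-GFP libraries 1 to 5, and 0.411, 0 and 0.0817 CPM in NonIR libraries 1 to 3. At 0 to 13 reads per library its log2 fold change in PreIR-NTN against NonIR, 1.93 (SE 0.80, 95% interval 0.24 to 3.63, adjusted p = 0.577), depends on the prior count and is not a bound. It was 3.84 without NonIR 1, and 0.56 to 3.84 over all alternatives.

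The other collagens held the chain with the lowest p-value in each comparison, Col20a1 in PreIR-NTN against NonIR and Col23a1 in both comparisons with PreIR-GFP. Col23a1, a transmembrane collagen (ENSMUSG00000063564, chromosome 11 from 51289920 to 51583918), measured 1.79, 3.05, 0.733, 1.81 and 2.78 CPM in PreIR-NTN libraries 1 to 5, 4.21, 4.95, 3.83, 2.697 and 5.11 CPM in PreIR-GFP libraries 1 to 5, and 1.37, 1.69 and 1.47 CPM in NonIR libraries 1 to 3. All 5 PreIR-GFP libraries lay above the 3 NonIR libraries; PreIR-NTN overlapped PreIR-GFP only through its 2 highest libraries and PreIR-GFP 4. The log2 fold change was 1.46 (SE 0.36, 95% interval 0.70 to 2.23, adjusted p = 0.232) in PreIR-GFP against NonIR, from an unadjusted p of 0.000971, and -1.02 (SE 0.29, 95% interval -1.64 to -0.40, adjusted p = 0.541) in PreIR-NTN against PreIR-GFP, from 0.00307. Between PreIR-NTN and NonIR it was 0.44 (-0.33 to 1.21), where Col23a1 ranked 17 of 30 chains by p-value. These first 2 values share the PreIR-GFP libraries. DESeq2 gave the PreIR-GFP comparison with NonIR an adjusted p of 0.0308; over all alternatives, its log2 fold change ran from 1.01 to 1.58 and its adjusted p from 0.0308 to 0.650.

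Col15a1, a collagen of vessel and muscle basement membrane zones, measured 1.72, 2.17, 2.12, 1.38 and 2.22 CPM in PreIR-NTN libraries 1 to 5, 3.12, 2.24, 3.75, 1.55 and 3.03 CPM in PreIR-GFP libraries 1 to 5, and 1.51, 1.097 and 1.96 CPM in NonIR libraries 1 to 3. PreIR-GFP was highest on average, with overlap, at log2 fold changes of 0.84 (SE 0.31, 95% interval 0.19 to 1.495, adjusted p = 0.462) against NonIR and -0.51 (-1.05 to 0.04) for PreIR-NTN against PreIR-GFP. PreIR-NTN against NonIR stood at 0.33 (-0.33 to 0.99). Col18a1, whose C-terminal fragment is endostatin, measured 6.95, 5.28, 6.03, 6.16 and 10.5 CPM in PreIR-NTN libraries 1 to 5, 4.06, 6.01, 8.05, 7.28 and 3.69 CPM in PreIR-GFP libraries 1 to 5, and 5.06, 4.05 and 7.11 CPM in NonIR libraries 1 to 3, and all groups overlapped.

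Col16a1, a fibril-associated collagen, measured 2.15, 0.762, 1.22, 1.45 and 1.74 CPM in PreIR-NTN libraries 1 to 5, 2.32, 1.58, 1.09, 1.42 and 0.535 CPM in PreIR-GFP libraries 1 to 5, and 0.753, 0.675 and 0.654 CPM in NonIR libraries 1 to 3. Its PreIR-NTN libraries all lay above the NonIR libraries, and PreIR-GFP 5 lay below them. The log2 fold change was 1.06 (SE 0.45, 95% interval 0.10 to 2.01, adjusted p = 0.592) in PreIR-NTN and 0.98 (SE 0.45, 95% interval 0.03 to 1.94, adjusted p = 0.549) in PreIR-GFP, each against NonIR. Col20a1, another fibril-associated collagen, measured 2.37, 1.23, 1.14, 1.89 and 1.59 CPM in PreIR-NTN libraries 1 to 5, 2.103, 1.45, 1.33, 1.55 and 0.832 CPM in PreIR-GFP libraries 1 to 5, and 1.09, 0.506 and 0.899 CPM in NonIR libraries 1 to 3. Its PreIR-NTN libraries did not overlap NonIR, at a log2 fold change of 0.95 (SE 0.37, 95% interval 0.16 to 1.75, adjusted p = 0.551), and PreIR-GFP stood at 0.77 (-0.02 to 1.57). It shares 79 exonic bases with BX649560.1 on the same strand, so its reads are uncertain there.

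Col7a1, which forms the anchoring fibrils beneath epithelia, measured 15.3, 11.7, 9.21, 12.8 and 9.44 CPM in PreIR-NTN libraries 1 to 5, 7.54, 9.898, 12.4, 10.7 and 9.93 CPM in PreIR-GFP libraries 1 to 5, and 10.5, 8.02 and 12.7 CPM in NonIR libraries 1 to 3. PreIR-NTN 1 was the highest, groups overlapped, and the log2 fold change in PreIR-NTN against PreIR-GFP was 0.21 (-0.17 to 0.59). Col17a1, the hemidesmosome collagen of basal epithelial cells, was named after its values were seen; it averaged 1.29 ± 0.3805 CPM in PreIR-NTN, 0.942 ± 0.255 CPM in PreIR-GFP and 0.7599 ± 0.158 CPM in NonIR (SD, n = 5, 5 and 3). Its log2 fold change in PreIR-NTN against NonIR was 0.76 (SE 0.35, 95% interval 0.01 to 1.51, adjusted p = 0.623). The remaining tested chains, Col9a3, Col12a1 and Col14a1, averaged 0.706 to 1.85 CPM, and none had an unadjusted p under 0.05.

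Collagen chains averaged higher than NonIR in both irradiated groups, without a call. In PreIR-NTN against PreIR-GFP, 12 chains were higher and 18 lower, at a median log2 fold change of -0.10 (all genes -0.01), where 47.3% of all genes were higher; without PreIR-GFP 1, 15 of 30 were higher, and without PreIR-GFP 1 and 2, 20 of 29. In PreIR-GFP against NonIR, 26 were higher and 4 lower at a median of 0.39 (all genes 0.02), against 52.7% of all genes higher; the other collagens stood at 0.55, collagen VI at 0.53, collagen IV at 0.48 and fibrillar chains at 0.18. Without PreIR-GFP 1 the fibrillar median was -0.00463, and without PreIR-GFP 1 and 2 the overall median was 0.177. In PreIR-NTN against NonIR, 22 were higher and 8 lower at a median of 0.35 (all genes 0.003), against 50.5% of all genes higher, and the other collagens, 10 of 10 higher, stood at 0.50. Collagen IV stood at 0.34. Fibrillar chains, at 0.06, were above 0 in 19 of 26 alternatives, and collagen VI, at -0.002, in 10. Markers of other cell types moved beside these values, and none passed the threshold against NonIR. All 5 tested Schwann cell and glia markers stood above NonIR in both irradiated groups, at summed levels of 54.7 to 69.9 CPM in PreIR-NTN, 57.1 to 70.7 CPM in PreIR-GFP and 37.4 to 51.2 CPM in NonIR. Of 7 granular tubule markers 6 stood below NonIR in each irradiated group, at summed levels of 19742 to 37103 CPM in PreIR-NTN, 9251 to 41177 CPM in PreIR-GFP and 35025 to 46458 CPM in NonIR. Adipocyte marker sums overlapped, at 0.725 to 19.2 CPM in PreIR-NTN, 1.98 to 20.2 CPM in PreIR-GFP and 1.63 to 11.7 CPM in NonIR, with 2 of 3 tested markers higher in PreIR-NTN and 3 of 3 in PreIR-GFP. In PreIR-GFP against NonIR, 6 of 6 mural, 7 of 8 endothelial, 6 of 7 fibroblast and 5 of 6 macrophage markers were also higher. In PreIR-NTN against NonIR, 2 of 6 mural, 3 of 8 endothelial, 1 of 7 fibroblast and 1 of 6 macrophage markers were higher. Of 5 tested basal and myoepithelial markers, 1 was higher in PreIR-GFP and 2 in PreIR-NTN, each against NonIR. The part of these cell types in the result was not tested. Both NonIR comparisons share their 3 NonIR libraries, so their values are not independent. Chains whose groups did not overlap were Col4a3, Col5a1 and Col23a1 in PreIR-GFP against NonIR, all higher, against 2.87% of all genes higher, and Col5a1, Col16a1 and Col20a1 in PreIR-NTN against NonIR, all higher, against 3.22%; none did in PreIR-NTN against PreIR-GFP, against 1.11%.

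**Figure D5:**
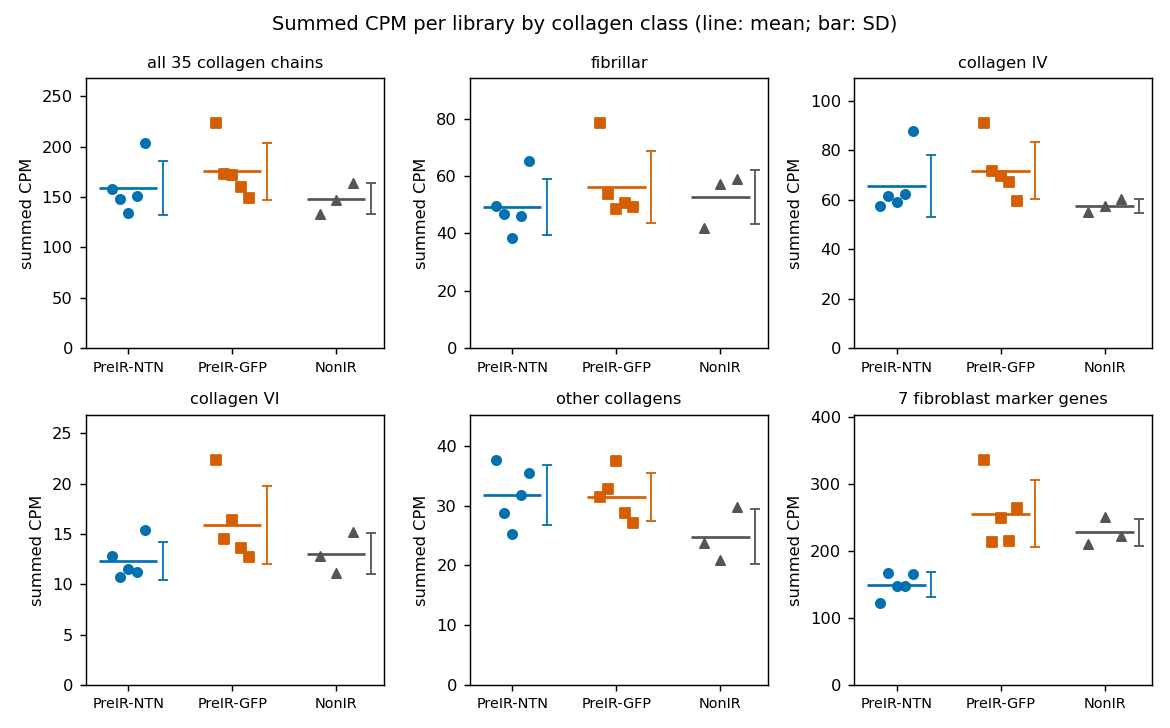
Summed CPM per library of each collagen class and of 7 fibroblast marker genes, with group means as lines and SD as bars. Collagen sums overlap between groups, whereas the fibroblast marker sum in PreIR-NTN, 122 to 168 CPM, lies below both other groups.

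Genes that process collagen, such as proline and lysine hydroxylases, chaperones and crosslinking enzymes, were examined as a list. Of 39 symbols named, 25 were tested, and none passed with edgeR in any comparison. At an unadjusted p under 0.05 stood 1 higher and 3 lower gene in PreIR-NTN against PreIR-GFP, where 6.08% of all genes did. Between PreIR-GFP and NonIR 2 stood higher and 1 lower, near the 8.78% of all genes, 5.35% higher and 3.43% lower, and 0 did in PreIR-NTN against NonIR, where 7.97% of all genes did. DESeq2 and limma-voom also called none, with 4, 3 and 0 genes at an unadjusted p under 0.05 in these comparisons. Their median log2 fold changes were -0.05, 0.13 and -0.01 in the same order.

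Pcolce2, which speeds removal of the procollagen C-propeptide, averaged 0.502 ± 0.256 CPM in PreIR-NTN and 1.48 ± 0.197 CPM in PreIR-GFP (SD, n = 5 and 5), a log2 fold change of -1.56 (SE 0.38, adjusted p = 0.315). For PreIR-GFP against NonIR it averaged 1.48 ± 0.197 CPM in PreIR-GFP and 0.621 ± 0.367 CPM in NonIR (SD, n = 5 and 3), a log2 fold change of 1.27 (SE 0.44, adjusted p = 0.425). Tll1, a procollagen C-proteinase, averaged 4.599 ± 1.72 CPM in PreIR-NTN and 2.62 ± 0.817 CPM in PreIR-GFP (SD, n = 5 and 5), a log2 fold change of 0.81 (SE 0.30, adjusted p = 0.689). In PreIR-GFP against NonIR Tll1 averaged 2.62 ± 0.817 CPM in PreIR-GFP and 5.46 ± 1.81 CPM in NonIR (SD, n = 5 and 3), a log2 fold change of -1.06 (SE 0.33, adjusted p = 0.358). Loxl3, a lysyl oxidase family crosslinker, averaged 2.93 ± 0.4298 CPM in PreIR-NTN and 4.33 ± 0.965 CPM in PreIR-GFP (SD, n = 5 and 5), a log2 fold change of -0.56 (SE 0.20, adjusted p = 0.687), and 4.33 ± 0.965 CPM in PreIR-GFP and 2.61 ± 0.668 CPM in NonIR (SD, n = 5 and 3), a log2 fold change of 0.74 (SE 0.24, adjusted p = 0.377). PreIR-GFP libraries did not overlap NonIR for 4 genes of the list, Pcolce2, Loxl3 and Mia3 higher and Tll1 lower, where 5.14% of all genes did not overlap. Pcolce2 was the 1 gene of the list without overlap between PreIR-NTN and PreIR-GFP, where 1.11% of all genes had none. Without NonIR 1 the log2 fold change of Pcolce2 in PreIR-GFP against NonIR was 0.84. In PreIR-NTN against NonIR the lowest p-values belonged to Mia2 and Mia3, which load large cargo such as procollagen into transport carriers, and to Bmp1, a C-proteinase. Mia2 averaged 133 ± 17.4 CPM in PreIR-NTN and 157 ± 29.8 CPM in NonIR (SD, n = 5 and 3), a log2 fold change of -0.25 (SE 0.16, adjusted p = 0.7398). Mia3 averaged 104 ± 11.7 CPM in PreIR-NTN and 91.1 ± 5.68 CPM in NonIR (SD, n = 5 and 3), a log2 fold change of 0.18 (SE 0.13, adjusted p = 0.764). Bmp1 averaged 6.11 ± 2.12 CPM in PreIR-NTN and 4.602 ± 0.631 CPM in NonIR (SD, n = 5 and 3), a log2 fold change of 0.40 (SE 0.28, adjusted p = 0.769).

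Of 10 collagen receptors, 7 were tested and none passed with edgeR in any comparison. At an unadjusted p under 0.05 stood 1 higher and 1 lower receptor of 7 in PreIR-NTN against PreIR-GFP, where 6.08% of all genes did, and 0 in either comparison with NonIR, where 8.78% did for PreIR-GFP and 7.97% for PreIR-NTN. DESeq2 and limma-voom also called none; at an unadjusted p under 0.05 each had 2 receptors in PreIR-NTN against PreIR-GFP, DESeq2 had 1 in PreIR-GFP against NonIR and limma-voom had 1 in PreIR-NTN against NonIR. Ddr1, an epithelial collagen receptor kinase, averaged 15.97 ± 2.33 CPM in PreIR-NTN and 11.4 ± 1.61 CPM in PreIR-GFP (SD, n = 5 and 5), a log2 fold change of 0.48 (SE 0.17, adjusted p = 0.683), and 15.97 ± 2.33 CPM in PreIR-NTN and 11.98 ± 4.21 CPM in NonIR (SD, n = 5 and 3), a log2 fold change of 0.42 (SE 0.20, adjusted p = 0.647). Ddr2, its relative in mesenchymal cells, averaged 0.628 ± 0.223 CPM in PreIR-NTN and 1.09 ± 0.859 CPM in PreIR-GFP (SD, n = 5 and 5), a log2 fold change of -0.75 (SE 0.45, adjusted p = 0.885); without PreIR-GFP 1 it was -0.13. Lair1, an inhibitory collagen receptor of immune cells, averaged 3.15 ± 1.29 CPM in PreIR-NTN and 4.85 ± 0.706 CPM in PreIR-GFP (SD, n = 5 and 5), a log2 fold change of -0.62 (SE 0.26, adjusted p = 0.760). Lair1 in PreIR-GFP against NonIR averaged 4.85 ± 0.706 CPM in PreIR-GFP and 3.62 ± 0.469 CPM in NonIR (SD, n = 5 and 3), a log2 fold change of 0.42 (SE 0.30, adjusted p = 0.735). The macrophage markers were lower in PreIR-NTN as well, at summed levels of 51.5 to 73.5 CPM in PreIR-NTN, 81.6 to 163.0 CPM in PreIR-GFP and 72.1 to 84.2 CPM in NonIR, and their part in the result was not tested. Itga10, a collagen-binding integrin subunit, averaged 0.681 ± 0.331 CPM in PreIR-GFP and 0.246 ± 0.2304 CPM in NonIR (SD, n = 5 and 3), a log2 fold change of 1.48 (SE 0.70, adjusted p = 0.5701), and 0.616 ± 0.379 CPM in PreIR-NTN and 0.246 ± 0.2304 CPM in NonIR (SD, n = 5 and 3), a log2 fold change of 1.32 (SE 0.71, adjusted p = 0.683). Leaving out 1 library at a time moved Itga10 between 1.00 and 2.49 in PreIR-GFP against NonIR and between 0.85 and 2.33 in PreIR-NTN against NonIR. In NonIR libraries 3 reads equal 0.205 to 0.253 CPM, so the NonIR mean of Itga10 rests on few reads. Itga1, another such subunit, averaged 4.73 ± 0.6601 CPM in PreIR-GFP and 5.19 ± 0.622 CPM in NonIR (SD, n = 5 and 3), a log2 fold change of -0.14 (SE 0.18, adjusted p = 0.882). Mrc2, which takes up collagen into cells, averaged 0.342 ± 0.322 CPM in PreIR-NTN and 0.729 ± 0.419 CPM in NonIR (SD, n = 5 and 3), a log2 fold change of -1.03 (SE 0.66, adjusted p = 0.745). Its PreIR-NTN mean also rests on few reads, since 3 reads equal 0.176 to 0.244 CPM in those libraries.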

How the data were processed

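Per the labels' protocols, RNA was copied with SMART-Seq v4, tagged with Nextera XT, which does not mark strand, and sequenced on a NextSeq instrument. Alignment used STAR 2.5.2a and GRCm38.p3, per the submitters' processing notes, which name no counting tool. The authors deposited raw read counts per gene, used for every main result, and normalised signal values, which on testing were the counts times 1 constant per library. The series description gives another instrument and triplicates, and the labels were followed.

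Genes were kept by filterByExpr (14727 of 48709), scaled by TMM and tested with edgeR 4.0.16 (quasi-likelihood F test, two-sided, all 13 libraries, R 4.3.3), with Benjamini-Hochberg adjustment over all genes and a threshold of 0.05. Intervals are 95%, and standard errors come from the F statistic. Limma 3.58.1 and DESeq2 1.42.0 were alternatives. Correlations used log2 CPM with a prior count of 2. Exon lengths and positions came from GENCODE M21 (GRCm38). Collagen members and lists were chosen with earlier results of these data known. Named with all values were the 12 chains of highest CPM, all tested collagen IV and VI chains and the 3 lowest p-values per comparison. A count of 0 allows up to 3 reads, which covers counting error only. Entries that name no mouse gene held at most 9 reads in a library and stayed out. The tests were checked on simulated counts, which held no shift shared by the genes of a library. The depth limits chains of few reads.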

Additional observations from a re-analysis of the deposited data

Results flagged for a closer look

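Of 78 groups of 5 libraries examined for a library far from the others, 9 stood out. Chance gives about 1 in 20 where values are independent and normally distributed. Chains and the class sums that hold them share libraries, so 9 of 78 does not measure an excess. PreIR-GFP 1 was the highest of its group for Col4a3 (48.4 CPM, next 39.0), Col4a4 (4.71 CPM, next 2.32), Col5a1 (1.45 CPM, next 0.726), Col6a6 (5.00 CPM, next 2.89) and the fibrillar sum (78.3 CPM, next 53.7). PreIR-NTN 1 was the lowest of its group for Col11a1 (2.29 CPM, next 7.98), and PreIR-NTN 3 for Col4a5 (3.34 CPM, next 4.63). PreIR-NTN 5 was the highest for the collagen IV sum (88.0 CPM, next 62.4). PreIR-GFP 2 was the highest for the skeletal muscle marker sum (189.9 CPM, next 4.45).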

How the results depend on the processing

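No chain was called in any of 26 alternatives in the comparison of PreIR-NTN with PreIR-GFP or with NonIR, and 1, Col23a1, was called by DESeq2 in PreIR-GFP against NonIR (adjusted p = 0.0308, log2 fold change 1.46). Of 58 printed log2 fold changes, 40 of collagen chains and 18 of processing genes and receptors, recomputed in 1503 alternatives in all, 1488 kept their direction and their side of the threshold and 14 reversed. None of the 58 passed the threshold in the main fit, so keeping their side says little. The alternatives re-use the same libraries and are not independent. Col1a1 in PreIR-NTN against PreIR-GFP was 0.07 without PreIR-GFP 1 and 2, and -0.33 to 0.12 without 1 library, 4 of these above 0. In PreIR-GFP against NonIR, Col1a2 was -0.07 without PreIR-GFP 1 and 2, -0.03 without PreIR-GFP 1 and 5, -0.01 without PreIR-GFP 1 and PreIR-NTN 5, and -0.01 to 0.27 without 1 library. Col3a1 in the same settings was -0.21, -0.11 and -0.18, and -0.18 to 0.17 without 1 library. The correlation of Col5a1 with Col5a2 was -0.047 without 2 libraries. The cause was not tested.

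The count of genes called in PreIR-NTN against PreIR-GFP was 3, and 10 without a filter, 39 with DESeq2, 0 with limma-voom, 0 with only the 2 groups, 1 without PreIR-GFP 1 and 2, 0 without PreIR-GFP 1 and 5, 0 without PreIR-GFP 1 and PreIR-NTN 5, and 0 to 11 without 1 library. In PreIR-GFP against NonIR it was 5, and 0 with upper-quartile scaling, 20 without a filter, 68 with DESeq2, 0 with limma-voom, 0 from the deposited CPM plus 1 or plus 0.1, 0 with only the 2 groups, 1 without PreIR-GFP 1 and 2 or without PreIR-GFP 1 and 5, 13 without PreIR-GFP 1 and PreIR-NTN 5, and 0 to 17 without 1 library. In PreIR-NTN against NonIR it was 3, and 31 with DESeq2, 1 with limma-voom, 5 without PreIR-GFP 1 and 2 or without PreIR-GFP 1 and 5, 0 without PreIR-GFP 1 and PreIR-NTN 5, and 0 to 4 without 1 library. Over the 3 comparisons together, 30 alternatives called 0 genes, with 678 to 1415 genes at an unadjusted p under 0.05. The sets that left out PreIR-GFP 1 with PreIR-GFP 5 or PreIR-NTN 5 were chosen after seeing the data.

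The median log2 fold change of chains in PreIR-GFP against NonIR was 0.177 without PreIR-GFP 1 and 2 and 0.27 to 0.48 without 1 library. In PreIR-NTN against NonIR it was 0.167 from the deposited CPM plus 1 and 0.23 to 0.404 without 1 library, and in PreIR-NTN against PreIR-GFP -0.27 to 0.00117 without 1 library. With a replicate block, 0 genes and 0 chains were called in each comparison, with 692, 1084 and 878 genes at an unadjusted p under 0.05 in PreIR-NTN against PreIR-GFP, PreIR-GFP against NonIR and PreIR-NTN against NonIR. Deviations of same-numbered libraries had correlations of -0.43 to 0.28. The labels state no block, and whether these libraries share more than a number was not tested. Chains of few reads are limited by depth.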
